A study of Mus musculus with 19 samples.

Results

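Wnt signaling around the central veins of the liver keeps a set of genes on in the hepatocytes there, and 9 of these genes were followed here in mice with elevated endocannabinoids: Glul, Oat, Slc1a2, Lect2, Tbx3, Axin2, Lgr5, Rnf43 and Znrf3. All probes annotated to 1 of these symbols were taken, which gave 14 of the 25697 probes on the array and 9 of its 16593 named genes. Tbx3 had 3 probes, Slc1a2 had 4, and every other gene had 1. Liver RNA from each of 19 mice was hybridized to its own array of an Illumina MouseRef-8 BeadChip. The AM251/IDFP group of 5 mice received AM251 at 10 mg/kg shortly before IDFP at 10 mg/kg, the IDFP group of 8 mice received IDFP alone at 10 mg/kg, and the DMSO group of 6 mice received the vehicle. All mice were 7-week-old Swiss-Webster males that had been fasted, dosed i.p. and killed 4 h after treatment. IDFP (isopropyl dodecylfluorophosphonate) inhibits MAGL and FAAH, the enzymes that break down the endocannabinoids, and AM251 is an antagonist of the cannabinoid receptor CB1. No mice were given AM251 alone, so that the effect of AM251 by itself cannot be told apart from its effect on the response to IDFP. IDFP and AM251 are dosed to the whole animal, and the RNA was that of whole liver, in which fewer cells of a type and less RNA per cell cannot be told apart.

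As background, blood flows through each liver lobule from the portal vein to the central vein, and hepatocytes divide their work along this path. Periportal cells make glucose and urea, whereas pericentral cells make glutamine and clear foreign compounds. Wnt ligands and R-spondins from the endothelium of the central vein stabilize β-catenin in the nearest hepatocytes, and β-catenin with factors of the TCF/LEF family then switches on the pericentral genes. Some of these genes act in metabolism, such as Glul (glutamine synthetase), Oat (ornithine aminotransferase) and Slc1a2 (a glutamate transporter). Others belong to the pathway itself. Axin2 is a scaffold of the complex that degrades β-catenin, Lgr5 is a receptor of R-spondins, and Rnf43 and Znrf3 are ubiquitin ligases that remove Wnt receptors from the cell surface. The remaining genes are no such parts of the pathway: Tbx3 is a transcriptional repressor, and Lect2 is a protein secreted by hepatocytes.

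Promoter sequences from RefSeq (GRCm38.p6) were matched by symbol to 6 of the 9 genes, with 7 windows, since Rnf43 had 2. Tbx3, Lgr5 and Znrf3 are named only. In the 250 bases before the transcription start, the core letters CTTTGA of a TCF/LEF motif were searched on both strands, and 13.8% of 32851 promoters held them. Among the windows matched here, those of Lect2 and Slc1a2 held them, and those of Glul, Axin2, Oat and Rnf43 did not. The windows of Axin2 and Slc1a2 are shown because Axin2 was lower after IDFP and has no match, while Slc1a2 was not called and has 2, at 206 and 77 bases before the start. Both windows are on the plus strand, at chr11:108920099-108920348 for Axin2 and at chr2:102706188-102706437 for Slc1a2. Capitals mark the letters of a match, which read TCAAAG where the match is on the opposite strand. A match is a description of the letters and not a binding site.
Axin2: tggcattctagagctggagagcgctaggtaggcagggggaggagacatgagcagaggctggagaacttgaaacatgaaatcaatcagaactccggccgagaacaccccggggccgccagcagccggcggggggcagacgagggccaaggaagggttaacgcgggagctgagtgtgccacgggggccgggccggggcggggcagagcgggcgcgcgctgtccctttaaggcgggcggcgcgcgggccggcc
Slc1a2: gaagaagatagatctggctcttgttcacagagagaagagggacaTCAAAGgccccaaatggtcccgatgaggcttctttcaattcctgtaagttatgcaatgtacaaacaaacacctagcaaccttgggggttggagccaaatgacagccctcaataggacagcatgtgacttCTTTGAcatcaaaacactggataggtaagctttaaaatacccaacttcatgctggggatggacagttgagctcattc

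The values given for single mice are the deposited intensities, which the authors had normalized and background subtracted, so that a transcript without signal lies around 0 and can be negative. An intensity above 17.5 to 17.6 units, depending on the array, was called detected, and a gene entered the test when the majority of the arrays detected it in 1 group or more. Between 8997 and 9157 genes were detected on an array, and 9346 genes were tested, among them 7 of the 9 genes described here. The log2 changes are from limma on corrected signals, to which 16 units had been added. The correction itself also raised the deposited values, so that an intensity of -0.0312 (Rnf43 in IDFP 3) became a log2 signal of 5.38. The changes of dim genes are therefore understated. For Lgr5 the IDFP mean was 50.7% of the DMSO mean, while the log2 change was -0.54. An adjusted p under 0.05 over all 9346 genes is called a change. Of all tested genes, 16.3% were called for IDFP vs. DMSO, 9.88% for AM251/IDFP vs. DMSO and 10.8% for AM251/IDFP vs. IDFP. The count for AM251/IDFP vs. DMSO depended on single arrays, and it was 4.33% without DMSO 3 and between 5.34 and 6.07% without DMSO 4, DMSO 5 or AM251/IDFP 2, 3 or 4. That for AM251/IDFP vs. IDFP was 7.23% without AM251/IDFP 3.

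IDFP lowered 3 of the 7 tested genes, namely Tbx3, Axin2 and Lgr5, and raised none. Across all tested genes, 9.53% were lower in IDFP than in DMSO mice. The metabolic genes Glul, Oat and Slc1a2 were not called. The log2 changes of the 7 genes lay between -1.51 and 0.07 for IDFP vs. DMSO, between -0.90 and 0.22 for AM251/IDFP vs. DMSO and between -0.18 and 0.62 for AM251/IDFP vs. IDFP. The comparisons share samples: both comparisons with DMSO use the same 6 DMSO mice, and the AM251/IDFP and IDFP mice each enter 2 comparisons.

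**Figure D1:**
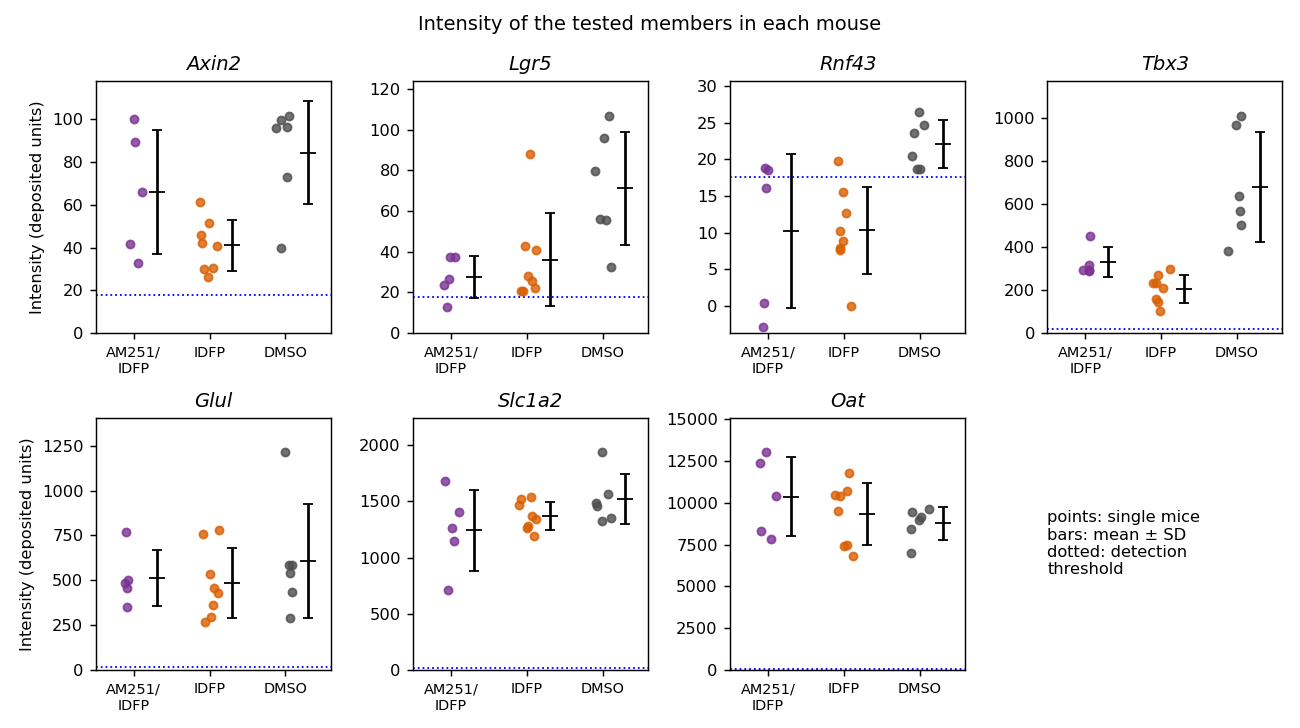
Intensity (deposited units, a scale of its own for each gene) of the 7 tested genes in each AM251/IDFP, IDFP and DMSO mouse, each through the probe used in the test, with the mean ± SD of each group beside the points and the detection threshold dotted. For Tbx3 every IDFP mouse lies below every DMSO mouse, whereas the groups overlap for every other gene shown.

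Tbx3 had the largest change of the 7 genes. Its intensities were 287, 293, 295, 317 and 450.0 in the AM251/IDFP mice. In the IDFP mice they had a lowest value of 103, a median of 221 and a highest value of 295, and in the DMSO mice a lowest value of 379, a median of 602 and a highest value of 1009. All 8 IDFP mice were below all 6 DMSO mice, which was the case for 2.72% of all tested genes, and 4 of the 5 AM251/IDFP mice were below the lowest DMSO mouse. The mean was 205 ± 65.4 in IDFP mice and 676 ± 255 in DMSO mice (SD, n = 8 and 6), so that the level in IDFP mice was 30.3% of that in DMSO mice. The log2 change of Tbx3 was -1.51 ± 0.20 (SE; limma, adjusted p = 4.93e-05). Among all tested genes, Tbx3 stood at rank 56 by p and at rank 18 by the size of the fall. The call held when any of the 19 arrays was left out, with an adjusted p of at most 0.000234.

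The other probes of Tbx3 pointed the same way. The second probe had means of 182 ± 43.6 in AM251/IDFP, 108 ± 29.4 in IDFP and 306 ± 88.6 in DMSO mice, and here too no IDFP mouse reached the lowest DMSO mouse, with a highest value of 167 in IDFP mice and a lowest value of 184 in DMSO mice. The third probe was dim, with means of 19.5, 18.01 and 33.7 in AM251/IDFP, IDFP and DMSO mice. It was above the threshold on 3 of 5, 2 of 8 and 5 of 6 arrays of these groups, and its groups overlapped. With each probe tested by itself, where 14.6% of 12704 probes were called for IDFP vs. DMSO, the log2 changes were -1.51, -1.19 and -0.34, with adjusted p of 5.91e-05, 4.35e-05 and 0.0465 (limma).

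**Figure D2:**
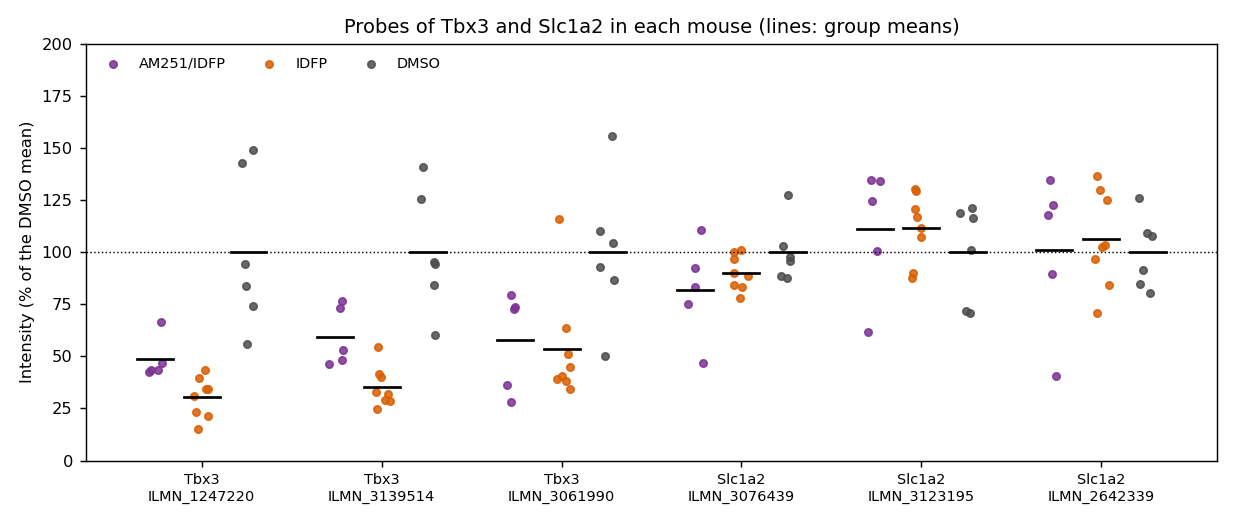
Intensity as a percentage of the DMSO mean for 3 probes of Tbx3 and 3 probes of Slc1a2 (the fourth was near the background) in each AM251/IDFP, IDFP and DMSO mouse, with a line at the mean of each group. The 3 probes of Tbx3 had IDFP means of 30.3, 35.5 and 53.5% of the DMSO mean, and the 3 probes of Slc1a2 had IDFP means of 90.2, 112 and 106%.

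Axin2, which limits Wnt signaling as part of the complex that degrades β-catenin, was also lower in IDFP mice. Its intensities were 32.7, 41.7, 66.2, 89.2 and 100.03 in AM251/IDFP mice. In IDFP mice they had a lowest value of 26.2, a median of 41.3 and a highest value of 61.1, and in DMSO mice a lowest value of 39.9, a median of 96.3 and a highest value of 102. All 8 IDFP mice were below the DMSO mean, but the groups overlapped, since 1 DMSO mouse, DMSO 6, was as low as the middle of the IDFP mice. The AM251/IDFP mice spread over almost the whole range of both other groups. The mean was 41.0 ± 12.0 in IDFP mice and 84.4 ± 24.2 in DMSO mice, with a log2 change of -0.60 ± 0.15 (limma, adjusted p = 0.0105). This call held without any single array, with an adjusted p of at most 0.0307.

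Lgr5, the R-spondin receptor, was lower in both treated groups than in DMSO mice. Its intensities were 12.96, 23.9, 26.6, 37.4 and 37.6 in AM251/IDFP mice. In IDFP mice they had a lowest value of 20.5, a median of 26.9 and a highest value of 88.1, and in DMSO mice a lowest value of 32.7, a median of 67.9 and a highest value of 107. In IDFP mice, 7 of 8 were below the DMSO mean, and IDFP 8 stood apart at 88.1. All 5 AM251/IDFP mice were below the DMSO mean, and 3 of them were below the lowest DMSO mouse. The log2 change was -0.54 ± 0.17 for IDFP vs. DMSO (limma, adjusted p = 0.0306) and -0.65 without IDFP 8 (adjusted p = 0.00419). The call was lost without any one of IDFP 2, 3, 4 or 6 or DMSO 2, 4 or 6, with an adjusted p of at most 0.076, while the change stayed between -0.65 and -0.45 over all arrays left out. Lgr5 was above the threshold on 4 of 5 AM251/IDFP, all 8 IDFP and all 6 DMSO arrays.

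Rnf43, a ubiquitin ligase that removes Wnt receptors, was close to the detection threshold. Its intensities were -2.84, 0.405, 16.1, 18.5 and 18.8 in AM251/IDFP mice. In IDFP mice they had a lowest value of -0.0312, a median of 9.60 and a highest value of 19.8, and in DMSO mice a lowest value of 18.7, a median of 22.0 and a highest value of 26.5. It was detected on 2 of 5 AM251/IDFP, 1 of 8 IDFP and 6 of 6 DMSO arrays, and so was tested only because of the DMSO mice. The DMSO mice lay above 7 of the 8 IDFP mice and overlapped with the last. With a log2 change of -0.30 ± 0.11 Rnf43 did not pass the test for IDFP vs. DMSO (limma, adjusted p = 0.0562). It passed without IDFP 8 or without AM251/IDFP 2, 4 or 5 (adjusted p down to 0.0358) and with the deposited values set to a floor of 10 units, where the log2 change was -0.88 (adjusted p = 0.00389). Because it passed the filter on low values through the group in which it was high, its lower values in treated mice are given as a description only.

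Glul, the classic marker of the hepatocytes next to the central vein, varied widely between mice of each group. Its intensities were 353, 455, 486, 502 and 768 in AM251/IDFP mice. In IDFP mice they had a lowest value of 267, a median of 442 and a highest value of 782, and in DMSO mice a lowest value of 289, a median of 561 and a highest value of 1214. The 3 groups overlapped throughout, and DMSO 3 was the highest. The mean was 486 ± 195 in IDFP mice and 608 ± 318 in DMSO mice, with a log2 change of -0.26 ± 0.26 (limma, adjusted p = 0.537). Its 95% interval of -0.77 to 0.24 includes the log2 change of Axin2, -0.60. The change of the dimmer Axin2 is understated more, since its IDFP mean was 48.5% of its DMSO mean, so that the 2 log2 changes are not on an equal footing. The change of Glul was between -0.43 and -0.048 with single arrays left out.

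Oat, a mitochondrial enzyme of ornithine breakdown, had means of 10376 ± 2345 in AM251/IDFP, 9334 ± 1842 in IDFP and 8766 ± 977 in DMSO mice. The ranges of these groups were 7805 to 13017, 6820 to 11782 and 6969 to 9650, so that they overlapped. The log2 change of Oat was 0.07 ± 0.14 for IDFP vs. DMSO (limma, adjusted p = 0.781), with a 95% interval of -0.20 to 0.35. A fall as large as that of Tbx3, Axin2 or Lgr5 lies outside this interval.

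Slc1a2 (GLT-1, which takes up glutamate) was read by 3 probes above the background, and none of them was called. The brightest had means of 1243 ± 359 in AM251/IDFP, 1372 ± 127 in IDFP and 1521 ± 221 in DMSO mice and a log2 change of -0.14 ± 0.14 for IDFP vs. DMSO (limma, adjusted p = 0.537). The other 2 had changes of 0.17 and 0.07, with adjusted p of 0.534 and 0.855 over all probes, and differences between the probes were not tested. All 3 probes were lowest in the same mouse, AM251/IDFP 3, at 712, 436 and 110, and IDFP 5 was the lowest IDFP mouse in all 3. The brightest probe was highest among the AM251/IDFP mice in AM251/IDFP 5, at 1686. The fourth probe was near the background, with means of 7.95, 12.3 and 3.10 in AM251/IDFP, IDFP and DMSO mice, and was detected on 4 IDFP arrays and on none of the others.

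Lect2 and Znrf3 were not detected on any of the 19 arrays. The mean intensity of Lect2 was -7.19 ± 6.57 in AM251/IDFP, -10.0 ± 7.58 in IDFP and -4.28 ± 6.61 in DMSO mice. That of Znrf3 was -7.82 ± 6.60 in AM251/IDFP, -10.3 ± 7.85 in IDFP and -9.14 ± 1.304 in DMSO mice. These probes say nothing about whether the transcripts changed.

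**Figure D3:**
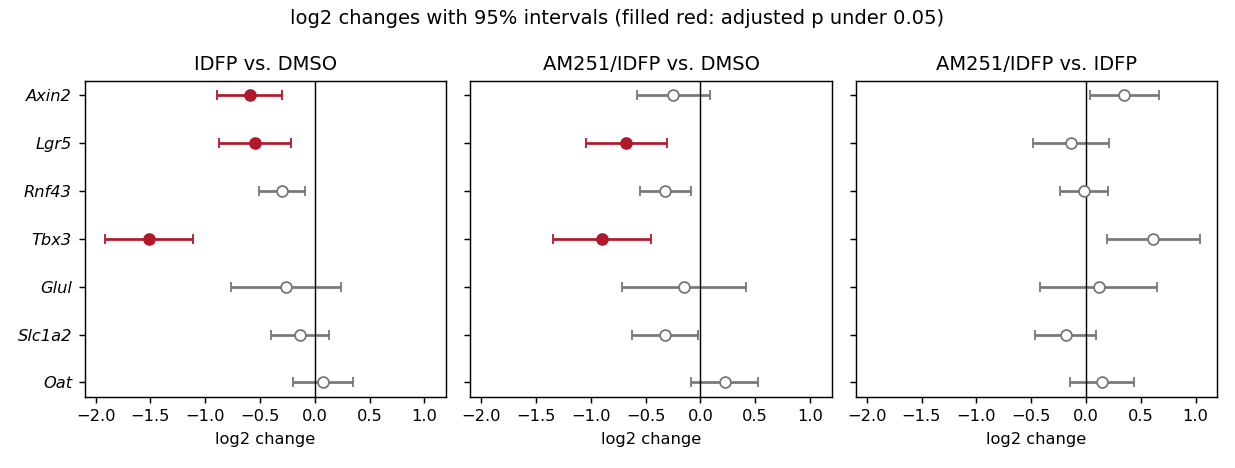
log2 change of each tested gene in the 3 comparisons (limma), with bars for the 95% interval and the genes with an adjusted p under 0.05 filled in red. Tbx3, Axin2 and Lgr5 are red for IDFP vs. DMSO, Tbx3 and Lgr5 for AM251/IDFP vs. DMSO, and none for AM251/IDFP vs. IDFP.

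To test whether blocking CB1 alters these levels, mice given AM251 before IDFP were compared with both other groups. Against DMSO mice, 2 of the 7 genes, Tbx3 and Lgr5, were lower and none was higher, where 6.22% of all tested genes were lower and 3.66% higher. Tbx3 had a mean of 328 ± 69.0 in AM251/IDFP and 676 ± 255 in DMSO mice, with a log2 change of -0.90 ± 0.23 (limma, adjusted p = 0.0192), and its call was lost without DMSO 3 (adjusted p = 0.0525). Lgr5 had a mean of 27.7 ± 10.3 in AM251/IDFP and 71.1 ± 28.0 in DMSO mice, with a log2 change of -0.68 ± 0.19 (limma, adjusted p = 0.0274), and its call was lost without AM251/IDFP 2 or 5 or DMSO 2 or 4 (adjusted p of at most 0.0762). The remaining genes did not pass, with log2 changes of -0.32 for Rnf43, -0.32 for Slc1a2, -0.25 for Axin2, -0.15 for Glul and 0.22 for Oat and adjusted p between 0.0899 and 0.808.

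Against IDFP mice, none of the 7 genes was called, and 2 had an unadjusted p under 0.05, Tbx3 and Axin2. Of all tested genes, 5.97% were called higher and 4.85% lower, and 24% had such a p. Tbx3 averaged 328 in AM251/IDFP and 205 in IDFP mice, and all 5 AM251/IDFP mice were above the IDFP mean, but only 2 were above the highest IDFP mouse. Its log2 change was 0.62 ± 0.22 (limma, adjusted p = 0.0721) and that of its second probe, tested by itself, was 0.57 ± 0.16 (adjusted p = 0.0307 over all probes), where 9.41% of the probes were called. Axin2 averaged 65.9 ± 29.1 in AM251/IDFP and 41.0 ± 12.0 in IDFP mice, with a log2 change of 0.35 ± 0.16 (limma, adjusted p = 0.185). Lgr5 averaged 27.7 in AM251/IDFP and 36.1 in IDFP mice, with a log2 change of -0.13 ± 0.18 and a 95% interval of -0.48 to 0.21. The changes of Glul, Oat, Slc1a2 and Rnf43 lay between -0.18 and 0.15, with adjusted p of at least 0.479. Axin2 was thus called against DMSO in IDFP mice and not in AM251/IDFP mice, but the test of the difference between these groups did not pass.

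The study expresses the effect of AM251 as percent reversal, which is 100 when the AM251/IDFP mean equals the DMSO mean and 0 when it equals the IDFP mean. Computed from the means of the deposited intensities, it was 26.2% for Tbx3, 57.5% for Axin2 and -23.9% for Lgr5, and its median over all 1523 genes called for IDFP vs. DMSO was 47.7%. A negative value means that the AM251/IDFP mean was farther from DMSO than the IDFP mean. With each AM251/IDFP mouse taken by itself, Tbx3 ranged from 17.3 to 52.0%, Axin2 from -19.0 to 136% and Lgr5 from -65.9 to 4.44%. The values of Axin2 therefore ran from no reversal to more than full reversal among 5 mice.

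Pericentral genes outside these 9 did not pass the test. Of 22 further pericentral genes, 18 were tested, and 0 were called in any of the 3 comparisons (limma). The lowest log2 change among them was -0.36 for IDFP vs. DMSO, -1.37 for AM251/IDFP vs. DMSO and -1.33 for AM251/IDFP vs. IDFP. The highest was 0.31, 0.21 and 0.17. At an unadjusted p under 0.05 there were 3 for IDFP vs. DMSO (Rhbg, Gstm2 and Gulo), 3 for AM251/IDFP vs. DMSO (Rhbg, Gstm2 and Cyp7a1) and 2 for AM251/IDFP vs. IDFP (Nr1i3 and Cyp7a1), where 30.8, 24.6 and 24% of all tested genes had such a p. Gulo, Cyp7a1 and Nr1i3 are named here after their values were seen. Cyp2e1 and Cyp1a2, the cytochromes that mark the pericentral zone, had means of 28054 ± 1578 and 7124 ± 1977 in AM251/IDFP, 28482 ± 1162 and 7351 ± 925 in IDFP and 28216 ± 1396 and 6567 ± 1436 in DMSO mice. Cyp2e1 lay at the level of the hepatocyte markers Ttr and Apoa1 given below, in the upper part of the intensity scale. Whether its probe could still show a change at this level was not tested. Rhbg, an ammonia transporter that lies with Glul next to the central vein, came nearest to the threshold. It averaged 149 ± 39.5 in AM251/IDFP, 157 ± 20.8 in IDFP and 209 ± 38.2 in DMSO mice, with log2 changes of -0.41 for AM251/IDFP vs. DMSO (limma, adjusted p = 0.0507) and -0.33 for IDFP vs. DMSO (adjusted p = 0.0589). Without AM251/IDFP 5 or DMSO 6, Rhbg was called in both comparisons, as it was for IDFP vs. DMSO without AM251/IDFP 3 and for AM251/IDFP vs. DMSO without DMSO 1 (adjusted p down to 0.031 and 0.0205).

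Of 20 periportal genes, 17 were tested. IDFP raised 3 (G6pc, Ass1 and Cyp2f2) and lowered none, where 6.76% of all tested genes were higher. Cps1, named here after its values were seen, was not called through its brighter probe. With each probe tested by itself, this probe had a log2 change of 0.24 (limma, adjusted p = 0.229). Its second probe had 0.49 (adjusted p = 0.0118), where 14.6% of the probes were called. The difference between these probes was not tested. AM251/IDFP mice were higher than DMSO mice for 3 (Tat, Ass1 and Arg1) and lower for 1 (Uroc1), and lower than IDFP mice for 2 (G6pc and Cdh1). The shares over all tested genes were 3.66% higher and 6.22% lower against DMSO mice and 4.85% lower against IDFP mice. G6pc, the last enzyme of glucose production, averaged 11789 ± 3435 in IDFP and 4466 ± 1341 in DMSO mice (log2 change 1.39, limma, adjusted p = 0.000447), and it averaged 5861 ± 2459 in AM251/IDFP mice, which was lower than in IDFP mice (log2 change -1.06, adjusted p = 0.00935). Ass1 of the urea cycle was higher by a log2 change of 0.37 in IDFP and 0.51 in AM251/IDFP mice than in DMSO mice (adjusted p = 0.0352 and 0.0206), and Tat, which starts tyrosine breakdown, was higher by 1.597 in AM251/IDFP mice (adjusted p = 0.0138). Cdh1, the adhesion molecule E-cadherin, averaged 410.3 ± 56.3 in AM251/IDFP and 667 ± 166 in IDFP mice (log2 change -0.62, adjusted p = 0.028). The calls of G6pc and Tat held without any single array. Those of Ass1 were lost without IDFP 1, 2 or 8 or DMSO 3, 4 or 5 for IDFP vs. DMSO (adjusted p of at most 0.106), and without AM251/IDFP 4 or DMSO 3, 4 or 5 for AM251/IDFP vs. DMSO (at most 0.0616), and that of Cdh1 was lost without AM251/IDFP 1 or 4 or IDFP 4 or 5 (at most 0.0801). Cyp2f2, Arg1 and Uroc1 were near the threshold (adjusted p = 0.049, 0.0434 and 0.044), and each of their calls was lost without some single arrays (at most 0.128). The median log2 change over the periportal genes was 0.37 for IDFP vs. DMSO, 0.21 for AM251/IDFP vs. DMSO and -0.17 for AM251/IDFP vs. IDFP.

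**Figure D4:**
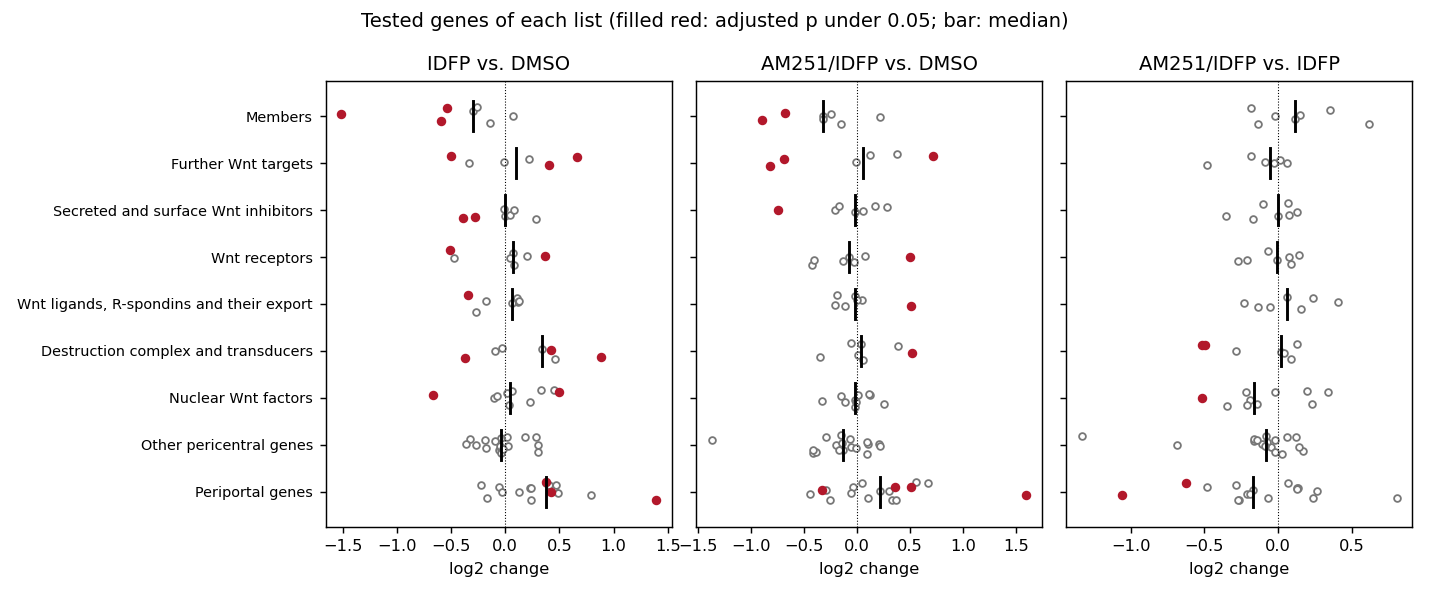
log2 change (limma) of every tested gene of each list in the 3 comparisons, with genes past an adjusted p of 0.05 filled in red and a bar at the median of the list. For IDFP vs. DMSO the called genes among the 7 at the top all lie below 0, no further pericentral gene is red, and the Wnt lists have 6 red genes above 0 and 7 below. The red Wnt genes include Myc and Rspo1, whose calls are a description only.

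Of 97 further genes of the Wnt pathway, 90 were on the array and 44 were tested. For IDFP vs. DMSO, 6 were higher and 7 lower, where 6.76 and 9.53% of all tested genes were called in these directions, so that 29.5% of the Wnt genes and 16.3% of all genes were called. The 6 higher genes include Myc and the 7 lower genes include Rspo1, whose calls are a description only, as said below. Each of the 6 lists of the pathway held at least 1 called gene, but the list of ligands and R-spondins held Rspo1 alone. Among the genes whose call held without any single array, Csnk1e, a kinase that acts on Wnt receptors and Dishevelled, averaged 271 ± 50.8 in IDFP and 129 ± 34.5 in DMSO mice (log2 change 0.88, limma, adjusted p = 4.93e-05). Tcf7l1, mainly a repressor among the TCF factors, averaged 262 ± 50.7 in IDFP and 175 ± 38.7 in DMSO mice (log2 change 0.49, adjusted p = 0.0127). Jun averaged 249 ± 40.0 in IDFP and 147 ± 46.5 in DMSO mice (log2 change 0.66, adjusted p = 0.0089). Pygo2, a nuclear partner of β-catenin, was lower, with 672 ± 78.8 in IDFP and 1099 ± 166 in DMSO mice (log2 change -0.67, adjusted p = 0.000185). The other called genes were Gsk3b, Lrp6 and Myc, which were higher, and Ctnnb1, Fzd7, Notum, Rspo1, Tnfrsf19 and Wif1, which were lower. Rspo1, detected on 1 of 5 AM251/IDFP, 0 of 8 IDFP and 4 of 6 DMSO arrays, and Myc, detected on 3 of 5, 3 of 8 and 0 of 6 arrays of these groups, passed the filter on low values only through a group in which they were high, and their calls are a description only. Each call of these 9 genes was lost without some single arrays, with an adjusted p of at most 0.125, and without DMSO 4 or DMSO 5 alone 5 of the 44 genes were called in place of 13.

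Ctnnb1 encodes β-catenin itself. Its brighter probe averaged 4206 ± 340 in AM251/IDFP, 4152 ± 399 in IDFP and 5491 ± 1318 in DMSO mice, with a log2 change of -0.37 for IDFP vs. DMSO (limma, adjusted p = 0.0332), a call that was lost without IDFP 5, 6 or 7 or DMSO 3, 4 or 5 (adjusted p of at most 0.0941). Its second probe had a change of -0.07 (adjusted p = 0.697 over all probes), and the difference between the probes was not tested. Of the signals of the central vein endothelium, Wnt2 averaged 248 ± 59.2 in AM251/IDFP, 203 ± 46.0 in IDFP and 242 ± 80.6 in DMSO mice, and Rspo3 averaged 157 ± 27.4, 168 ± 43.3 and 157 ± 28.0 in the same groups. Neither was called in any comparison, with adjusted p of at least 0.495. Wnt9b, which also comes from this endothelium, did not pass the filter on low values.

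Calls among other genes that Wnt signaling is known to induce went in both directions. Of 9 further Wnt targets, 6 were tested, and for IDFP vs. DMSO Jun was higher and Tnfrsf19 lower, with log2 changes of 0.66 and -0.50. Myc was also called higher (0.40), but it was detected on 3 of 8 IDFP and 0 of 6 DMSO arrays, and its call is a description only. Sp5, Cd44 and Ccnd1 were not called, with log2 changes of -0.34, 0.22 and -0.014. Notum, a secreted enzyme that inactivates Wnt ligands, averaged 480.5 ± 87.7 in AM251/IDFP, 622 ± 91.3 in IDFP and 836 ± 179 in DMSO mice. Its log2 change was -0.74 for AM251/IDFP vs. DMSO (limma, adjusted p = 0.0036), a call that held without any single array, and -0.39 for IDFP vs. DMSO (adjusted p = 0.0337), a call that was lost without IDFP 1, 2, 4, 5 or 8 or DMSO 3, 4 or 5 (at most 0.105). Sp5, a transcription factor, averaged 53.9 ± 30.6 in AM251/IDFP, 88.5 ± 22.7 in IDFP and 128 ± 58.6 in DMSO mice, with log2 changes of -0.82 for AM251/IDFP vs. DMSO (adjusted p = 0.0219; lost without AM251/IDFP 2 or 3 or DMSO 3 or 4, at most 0.0659) and -0.34 for IDFP vs. DMSO (adjusted p = 0.251). For both genes, the AM251/IDFP mean was the lowest of the 3, as for Lgr5. Neither passed the test between AM251/IDFP and IDFP mice, with adjusted p of 0.0912 for Notum and 0.141 for Sp5.

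For AM251/IDFP vs. DMSO, 4 of the 44 Wnt genes were higher (Gsk3b, Jun, Lrp6 and Porcn) and 3 lower (Notum, Sp5 and Tnfrsf19), where 3.66% of all tested genes were higher and 6.22% lower. Lrp6, a coreceptor of Wnt, averaged 346 ± 59.9 in AM251/IDFP and 232 ± 46.1 in DMSO mice (log2 change 0.50, limma, adjusted p = 0.0136), a call that held without any single array. The calls of Gsk3b, Jun, Porcn and Tnfrsf19 were lost without some single arrays, and without AM251/IDFP 4 the count was 3 in place of 7. For AM251/IDFP vs. IDFP, 3 genes were lower and none higher, so that 6.82% of the Wnt genes and 10.8% of all genes were called. Csnk1e averaged 178 ± 7.76 in AM251/IDFP and 271 ± 50.8 in IDFP mice (log2 change -0.49, limma, adjusted p = 0.0139), and Tcf7l1 averaged 171 ± 40.4 in AM251/IDFP and 262 ± 50.7 in IDFP mice (log2 change -0.51, adjusted p = 0.0189; lost without AM251/IDFP 1 or 3, at most 0.0634). Btrc was the last, with an adjusted p of 0.0493 (limma), a call that was lost with any 1 of 14 of the 19 arrays left out (at most 0.147). With each probe tested by itself, this probe had an adjusted p of 0.0541, and the second probe of Btrc had 0.0295 (log2 change -0.47).

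Markers of cell types were compared beside these genes, and their part in the results was not tested. The hepatocyte markers Ttr and Apoa1 averaged 27008 ± 1752 and 28345 ± 1166 in AM251/IDFP, 26958 ± 1580 and 29271 ± 1629 in IDFP and 27695 ± 979 and 28394 ± 1146 in DMSO mice. Alb averaged 338 ± 221 in AM251/IDFP, 417 ± 219 in IDFP and 395 ± 276 in DMSO mice. Fgb averaged 46.3, 25.8 and 43.2 in these groups and was detected on 3 of 5, 4 of 8 and 4 of 6 arrays. Ttr and Apoa1 lay in the upper part of the intensity scale, and whether their probes could show a change there was not tested. Of 4 tested hepatocyte markers, 0 were called in any comparison, which with these limits says little about the share of hepatocytes. The summed intensity of the 3 tested neutrophil markers ranged from 1038 to 6236 in AM251/IDFP, from 633 to 1302 in IDFP and from 363 to 1158 in DMSO mice, and 2 of them, S100a8 and S100a9, were higher for AM251/IDFP vs. DMSO. Of 6 tested endothelial markers, 1, Clec4g of the sinusoidal endothelium, was lower in both IDFP and AM251/IDFP than in DMSO mice (log2 change -0.36 and -0.43, limma, adjusted p = 0.0275 and 0.0303), and Lyve1 was higher in AM251/IDFP than in IDFP mice (0.69, adjusted p = 0.046). The sum of the 6 ranged from 5596 to 8271 in AM251/IDFP, from 6055 to 8434 in IDFP and from 6937 to 9401 in DMSO mice. Thbd, a marker of central vein endothelium, was higher for AM251/IDFP vs. DMSO by a log2 change of 1.24 (limma, adjusted p = 0.0199), and the sum of the 4 tested markers of the same vessel ranged from 670.0 to 1152 in AM251/IDFP, from 533 to 888 in IDFP and from 398 to 698 in DMSO mice. This sum mostly followed Thbd itself, which averaged 457 ± 158, 259 ± 137 and 171 ± 68.2 in these groups. Wnt2 and Rspo3, given above, and Cdh13, with means of 25.2, 23.8 and 18.2, were not called in any comparison. For AM251/IDFP vs. IDFP, 1 of 4 tested Kupffer cell markers, Clec4f, was lower (log2 change -0.42, limma, adjusted p = 0.0467). So was 1 of 6 stellate cell markers, Lrat (-0.91, adjusted p = 0.0154). Lrat was detected on 0 of 5 AM251/IDFP and 7 of 8 IDFP arrays. It thus did not pass the filter through the AM251/IDFP mice, in which it was low, and its call is a description only. The summed Kupffer cell markers ranged from 2474 to 3769 in AM251/IDFP, from 2863 to 4652 in IDFP and from 3022 to 4560 in DMSO mice, and the summed stellate cell markers from 9482 to 13460, from 9403 to 12261 and from 9444 to 12362 in the same groups. Of 2 tested lymphocyte markers, Cd3e was lower for IDFP vs. DMSO (log2 change -0.34, adjusted p = 0.0427), but it was detected on 3 of 8 IDFP and 5 of 6 DMSO arrays and so passed the filter through the DMSO mice. No erythroid or cholangiocyte marker among those tested was called.

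The genes whose log2 signals followed each of the 7 genes most closely over the 19 arrays were no pericentral markers, with 1 exception. Tbx3 was followed by Med20 (Pearson's r = 0.95), Polk (0.94) and Nr1h4 (0.94), Glul by Glod4 (0.93), Chmp5 (0.91) and Slc35f5 (0.90), and Lgr5 by Inhba (0.89), Ppp1r35 (0.86) and Prkd3 (0.83). Axin2 was followed by Med31 (0.82), Ppif (0.81) and Polr2h (0.81), Rnf43 by Ncbp2 (0.81), Pex26 (0.79) and Zranb2 (0.78), Oat by Klhdc1 (0.78), Tagap (0.76) and Mog (0.74), and Slc1a2 by the pericentral Cyp2c50 (0.80), Luzp1 (0.77) and Mamdc4 (0.77). These values describe the 19 arrays, which share the differences between the 3 groups, and each was picked as the highest among all other tested genes. The values of Rnf43 were mostly below the detection threshold in both treated groups. Among the 7 genes themselves, r was 0.66 for Tbx3 and Axin2, 0.69 for Lgr5 and Rnf43, 0.25 for Lgr5 and Axin2 and 0.24 for Glul and Tbx3. Some pairs with Oat went the other way, with r of -0.64 for Lgr5, -0.46 for Rnf43 and -0.20 for Tbx3.

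Within groups, no relation between Glul and another of the tested genes from mouse to mouse passed the test. The relation with Rnf43 in IDFP mice, which was detected on 1 of 8 arrays there, is not read. Over the 12 relations computed (6 genes in IDFP and in DMSO mice), Pearson's r lay between -0.43 and 0.56, with a lowest exact permutation p of 0.243, two-sided, and an adjusted p of at least 0.822. The lowest p of Spearman's rho was that of Glul and Axin2 in DMSO mice, at -0.94 (exact permutation p = 0.0167, adjusted p = 0.2, n = 6), where r was -0.40 (exact permutation p = 0.335) and -0.49 without the 2 mice farthest from the median of Glul. Other relations changed more without these 2 mice. In DMSO mice r went from -0.28 to 0.95 for Lgr5 and from -0.27 to 0.66 for Slc1a2, and in IDFP mice from -0.13 to -0.96 for Slc1a2. Glul and Axin2 in IDFP mice stayed at -0.43. The r without 2 mice was not tested, and r thus depended on few mice. The 5 AM251/IDFP mice are too few for such a relation.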

How the data were processed

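Hepatic RNA of 19 mice was labelled and hybridized to 1-colour bead arrays by the authors. The values used are the intensities the authors deposited, which BeadStudio 3.2 had quantile normalized and background subtracted; they are linear, and 30.1% lie below 0. A second deposited table of 38 columns without normalization was not used, since its columns could not be tied to single mice; the chip was therefore not tested as a batch. Probes were named from the platform annotation (23978 of 25697). The genome build behind that annotation is not given in the sources used here; the promoter windows have the build of RefSeq given beside them.

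Intensities were corrected with normexp of limma (offset 16, no control probes), quantile normalized, which moved values by at most 0.00888 on the log2 scale, and log2 transformed. The background SD of each array (10.6 to 10.7 units) was the root mean square of its values below 0, and detection meant more than 1.64 SD. Of several detected probes of a gene, the brightest was used. The 3 groups were fitted together in limma 3.58.1 (lmFit, eBayes; R 4.3.3), p-values were adjusted by Benjamini-Hochberg over 9346 genes, and the threshold was 0.05. The 95% intervals use the normal approximation to the SE. Correlations used exact permutations over pairings in scipy 1.17.1, with pandas 2.3.3 and numpy 2.4.6 for tables and matplotlib 3.10.9 for plots, in Python 3.11.15. The number of arrays limits the precision. The limma fit and its adjustment were tested on simulated signals with known changes. The correction, the detection filter and the choice of probe were not tested in this way.

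The 9 genes, the lists and the tests were chosen with earlier results of these data known, so that the lists are no independent support. Named were all 9 genes, up to 4 genes of each list by the smallest p of any comparison, Ctnnb1, Cyp2e1 and Cyp1a2, and the 3 genes most correlated with each of the 7; Ass1, G6pc, Tat and Cdh1 of the periportal genes and Rhbg and Gstm2 of the pericentral genes come from this rule. Alternatives were an offset of 50, scaling arrays to their median, a floor of 10 units, other detection filters, other choices of probe, weights for arrays, other estimates of the variance, the replicate number as a block, fits restricted to 2 groups, log2 signals for the reversal and leaving out each array.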

Additional observations from a re-analysis of the deposited data

Results flagged for a closer look

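In the 21 groups of single genes checked for a mouse that stands apart from its group, of which chance would give about 5%, 2 had such a mouse. The log2 signal of Lgr5 in IDFP 8 was 7.02, and its intensity of 88.1 was more than that of any other IDFP mouse, the next being 42.7. The log2 signal of Tbx3 in AM251/IDFP 1 was 8.94, and its intensity of 450.0 stood above the other 4 AM251/IDFP mice at 287 to 317. Without IDFP 8, the log2 change of Lgr5 for IDFP vs. DMSO was -0.65 in place of -0.54 (limma, adjusted p = 0.00419). The second Tbx3 probe was also highest in AM251/IDFP 1, at 234.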

How the results depend on the processing

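For IDFP vs. DMSO, Tbx3 and Axin2 stayed lower under all 10 other settings of the fit (adjusted p of at most 0.00097 and 0.0353 in limma), as did Lgr5 (at most 0.0465), and 2 to 4 of the 7 genes were called with single arrays left out. For AM251/IDFP vs. DMSO this count was 1 to 2. For AM251/IDFP vs. IDFP it was 0 to 0 with arrays left out, and 1 (Tbx3) with array weights, 1 (Tbx3) with only the 2 groups compared and 1 (the second Tbx3 probe) with each probe tested by itself, where the adjusted p of Tbx3 was 0.0465, 0.0447 and 0.0307; over the other settings of the fit it went up to 0.13. Rnf43 was called for IDFP vs. DMSO with a floor of 10 units (adjusted p = 0.00389) and with only the 2 groups compared (0.0245), and for AM251/IDFP vs. DMSO with array weights (0.0404). The cause was not tested for any of these.

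The direction turned for changes that had not passed the test. Slc1a2 for IDFP vs. DMSO was 0.033 as the mean over its probes. For AM251/IDFP vs. IDFP, Rnf43 was 0.25 with the floor. With single arrays left out, Rnf43 was -0.083 to 0.077 (above 0 without IDFP 8 or AM251/IDFP 2 or 5), Glul was -0.031 to 0.23 (below 0 without AM251/IDFP 4), and Glul for AM251/IDFP vs. DMSO was -0.32 to 0.068 (above 0 without DMSO 3). With a floor, r of Glul and Rnf43 in IDFP mice was 0.20 (adjusted p = 0.785).

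Nothing in the labels pairs mice by replicate number. Over 16 pairs of the same number, the median correlation of deviations from the group means was 0.0157 (from -0.193 to 0.264, with 5 pairs over 0.1), and 6 of 19 arrays correlated best with an array of their own number. With the number as a replicate block, 1025 genes were called for IDFP vs. DMSO in place of 1523, 525 for AM251/IDFP vs. IDFP in place of 1011 and 790 for AM251/IDFP vs. DMSO in place of 923. In the AM251/IDFP vs. IDFP comparison Glul was then -0.018, Lgr5 0.041 and Rnf43 0.018. The block changed no call of the 7 genes. It ended those of G6pc, Csnk1e, Tcf7l1 and Btrc for AM251/IDFP vs. IDFP (adjusted p = 0.101, 0.116, 0.12 and 0.201), of Arg1 and Uroc1 for AM251/IDFP vs. DMSO (0.0517 and 0.0557) and of Ass1, Ctnnb1, Fzd7, Gsk3b, Myc, Rspo1 and Wif1 for IDFP vs. DMSO (0.0546 to 0.19), and Rhbg was called for IDFP vs. DMSO (0.0439).

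Among the lists, the count of further pericentral genes was 1 (Rhbg) for AM251/IDFP vs. DMSO with an offset of 50 and 1 with detection on every array of a group. For IDFP vs. DMSO, Rhbg was also called with array weights (adjusted p = 0.0296) and with only the 2 groups compared (0.0357). The count of periportal genes was 2 with the floor for AM251/IDFP vs. DMSO. With single arrays left out, 0 to 1 pericentral genes were called in each comparison. Besides Rhbg, these were Gstm2 for IDFP vs. DMSO without DMSO 3, and for AM251/IDFP vs. IDFP Nr1i3 without IDFP 8 and Cyp7a1 without AM251/IDFP 4. The count with single arrays left out was 1 to 4 periportal and 5 to 14 Wnt genes for IDFP vs. DMSO, 1 to 3 and 1 to 5 for AM251/IDFP vs. IDFP, and 1 to 5 and 3 to 10 for AM251/IDFP vs. DMSO. Percent reversal was then 19.7 to 30.5% for Tbx3, 37.9 to 76.7% for Axin2 and -32.3 to -2.22% for Lgr5, and from log2 signals 40.7, 58.7 and -24.7%. In fits of only the 2 groups compared, 450 genes in place of 923 were called for AM251/IDFP vs. DMSO. Signals near the background limit Lgr5 and Rnf43 and leave Lect2 and Znrf3 without a measurement.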
